A study of Mus musculus with 15 samples.

Results

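The 8 genes described here act between the arrival of insulin at the liver cell and the removal of the hormone: Ceacam1 and Ide in insulin clearance, Insr as the receptor, Irs1 and Irs2 as adaptors, Pik3r1 and Akt2 as the kinase step, and Foxo1 as the transcription factor at the end of the pathway. They were chosen by name, with earlier results of these data known, and found in the count table through the symbols of their Ensembl IDs. All 8 were present among 55450 gene IDs, and all 8 were among the 15808 genes that passed the filter on low counts and were tested. Poly(A) RNA of the liver was sequenced in 15 female C57BL/6 mice, with 1 library per mouse. The Adult group held 5 mice labelled 6 months old and the Old group 5 mice labelled 22 months old, both gavaged daily with corn oil as vehicle. The PDX group held 5 mice labelled 22 months old that received protectin DX, a lipid mediator made from docosahexaenoic acid, at 30 ng per g of body weight in the same oil. According to the study's methods these ages are those at the start of follow-up, and livers and frailty indices were taken at its end, when the mice were older. Gavage is given as 9 weeks in the treatment protocol and as 8 weeks in the design text. The 6-month mice received only vehicle, so the treatment is seen in the older mice only. Mice are called A1 to A5, O1 to O5 and P1 to P5, as labelled.

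In the liver, insulin binds its receptor, which phosphorylates the IRS adaptors. These recruit phosphatidylinositol 3-kinase, whose lipid product activates Akt, and Akt phosphorylates FOXO1 and keeps it out of the nucleus, which lowers the transcription of gluconeogenic genes. The liver also takes up and degrades much of the insulin that reaches it from the pancreas, a process in which the receptor partner CEACAM1 and the protease IDE take part. Irs2 is itself a gene that FOXO1 can activate and that insulin represses.

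Of the 8 genes, 4 passed the test between Old and Adult, and Irs1 and Irs2 were 2 of them, in opposite directions. Their promoters are therefore shown, with that of Ceacam1, the other gene that fell. The sequences come from RefSeq (GRCm38.p6), which had a window for 7 of the 8 genes, and each holds the 250 bases before the start site on the minus strand, written 5′ to 3′. The RefSeq start lies 22 bases from the GENCODE gene start for Ceacam1, 23 for Irs1 and 471 for Irs2. The Ceacam1 bases lie at chr7:25477626-25477875, the Irs1 bases at chr1:82291440-82291689 and the Irs2 bases at chr8:11008930-11009179. Capitals mark matches to CACGTG, the palindromic E-box, and to CAAAACA, the core of the insulin response sequence bound by FOXO factors, which reads TGTTTTG on the opposite strand.
Ceacam1: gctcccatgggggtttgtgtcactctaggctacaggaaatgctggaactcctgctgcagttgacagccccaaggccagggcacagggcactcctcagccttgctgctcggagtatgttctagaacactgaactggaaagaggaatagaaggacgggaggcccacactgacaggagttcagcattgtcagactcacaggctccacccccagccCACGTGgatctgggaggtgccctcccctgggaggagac
Irs1: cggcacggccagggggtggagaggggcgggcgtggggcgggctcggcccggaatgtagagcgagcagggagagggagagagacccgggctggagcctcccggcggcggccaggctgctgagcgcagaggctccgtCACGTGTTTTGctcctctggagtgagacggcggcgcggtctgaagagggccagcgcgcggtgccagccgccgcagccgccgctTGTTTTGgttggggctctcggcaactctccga
Irs2: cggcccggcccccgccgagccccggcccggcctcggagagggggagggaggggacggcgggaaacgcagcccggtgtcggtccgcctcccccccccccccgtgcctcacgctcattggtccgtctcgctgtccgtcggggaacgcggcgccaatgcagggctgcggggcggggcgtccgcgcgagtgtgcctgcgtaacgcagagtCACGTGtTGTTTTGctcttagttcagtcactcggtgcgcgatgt
Both Irs promoters held an E-box that touched or nearly touched a TGTTTTG. In Irs1 they shared 2 bases, with the E-box beginning 115 bases before the start site, and in Irs2 they were separated by 1 base, with the E-box beginning 44 bases before it. A CACGTG was found in 7.15% and a CAAAACA in 6.28% of 32851 promoter windows (250 bases before to 50 after the start), on both strands, and both in 0.408% of them. An E-box that overlapped a CAAAACA or lay within 1 base of it was found in 9 windows (0.0274%), those of Irs1 and Irs2 included; this arrangement was chosen for counting after it was seen in these sequences. Irs1 held another TGTTTTG beginning 32 bases before its start, Ceacam1 held an E-box alone, beginning 38 bases before its start, and the Ide window, whose start site lies 3308 bases from the gene start of the GENCODE annotation, held a CAAAACA and no E-box. The FOXO motif GTAAACA (3.65% of windows) and the cyclic AMP element TGACGTCA (1.79%) had no match in the windows of the 7 genes. CCAAT (37.4% of windows) matched in Ide, Irs2, Pik3r1, Akt2 and Foxo1, and GGGCGG (35.7%) in Irs1, Irs2, Pik3r1, Akt2 and Foxo1. Such matches describe the letters of the sequence and do not show binding.

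The libraries held 22424383 to 36070835 counted read pairs, and the 8 genes had between 243 and 4686 counts per mouse. All 6 hepatocyte markers were present in every group. O2 and O5 stood apart from the rest: their median correlation with the other Old mice was 0.896 and 0.858, against 0.922 to 0.936 for O1, O3 and O4, 0.982 to 0.985 in Adult and 0.971 to 0.978 in PDX. The summed hepatocyte markers were 60392 CPM (counts scaled to the size of the library) in O5 and 75402 in O2, against 123100 to 137018 in Adult, 127199 to 200837 in the other Old mice and 108988 to 162049 in PDX. O2 had the highest Kupffer and macrophage (2594 CPM, Adult 377 to 556) and erythroid (1027 CPM, Adult 171 to 263) sums, and O5 the highest acute-phase sum in Old (49828 CPM, Adult 8596 to 10237). Of the marker lists, neutrophil genes rose in Old against Adult for 4 of 4 tested, B and plasma cell genes for 3 of 5, stellate genes for 1 of 5 and acute-phase genes for 4 of 9, and 1 of 14 clock genes, Hlf, fell. In these lists and in the hepatocyte, sinusoidal endothelial, Kupffer, T and NK cell, cholangiocyte and erythroid lists no other gene passed the test in that comparison. Over all genes tested 6.78% were called there, 4.71% higher and 2.07% lower. The single genes called in the stellate and clock lists are therefore not read as changes of those lists. Between Old and Adult the hepatocyte markers moved in both directions, with log2 fold changes from -1.04 for Ttr to 0.68 for Tat. Whole liver was sequenced, so fewer hepatocytes, less RNA per hepatocyte and altered levels of the marker genes themselves cannot be told apart. The part of these markers in the results was not tested.

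The first comparison, Old with Adult, asked how aging changed these genes. Ide rose 1.82-fold and Irs2 2.83-fold, whereas Irs1 fell to 0.556 and Ceacam1 to 0.659 of its Adult level; Insr, Pik3r1, Akt2 and Foxo1 did not pass the test. Thus 4 of 8 genes were called, 2 higher and 2 lower, where 6.78% of all genes tested were called, 4.71% higher and 2.07% lower. The study had itself reported lower Ceacam1 and higher Ide in Old than in Adult from these libraries. In its own DESeq2 test the false discovery rate was under 0.05 for Ide but above 0.05 for Ceacam1. The genes were chosen with such results known, so the shares are a description and do not test the 8 as a set. The median absolute log2 fold change was 0.47 over the 8 genes and 0.31 over all genes tested. The test was edgeR's quasi-likelihood test over all 15 mice with Benjamini-Hochberg adjustment over all genes tested and a threshold of 0.05. Levels are CPM scaled by TMM factors. This test used 1 spread per gene, shared by the 3 groups, though their spreads differed. In the fit of the Old and Adult mice alone 0 of the 8 genes were called, where 0.698% of all genes were. The edgeR adjusted p was then 0.0605 for Ide, 0.0990 for Irs1, 0.129 for Irs2 and 0.156 for Ceacam1.

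**Figure D1:**
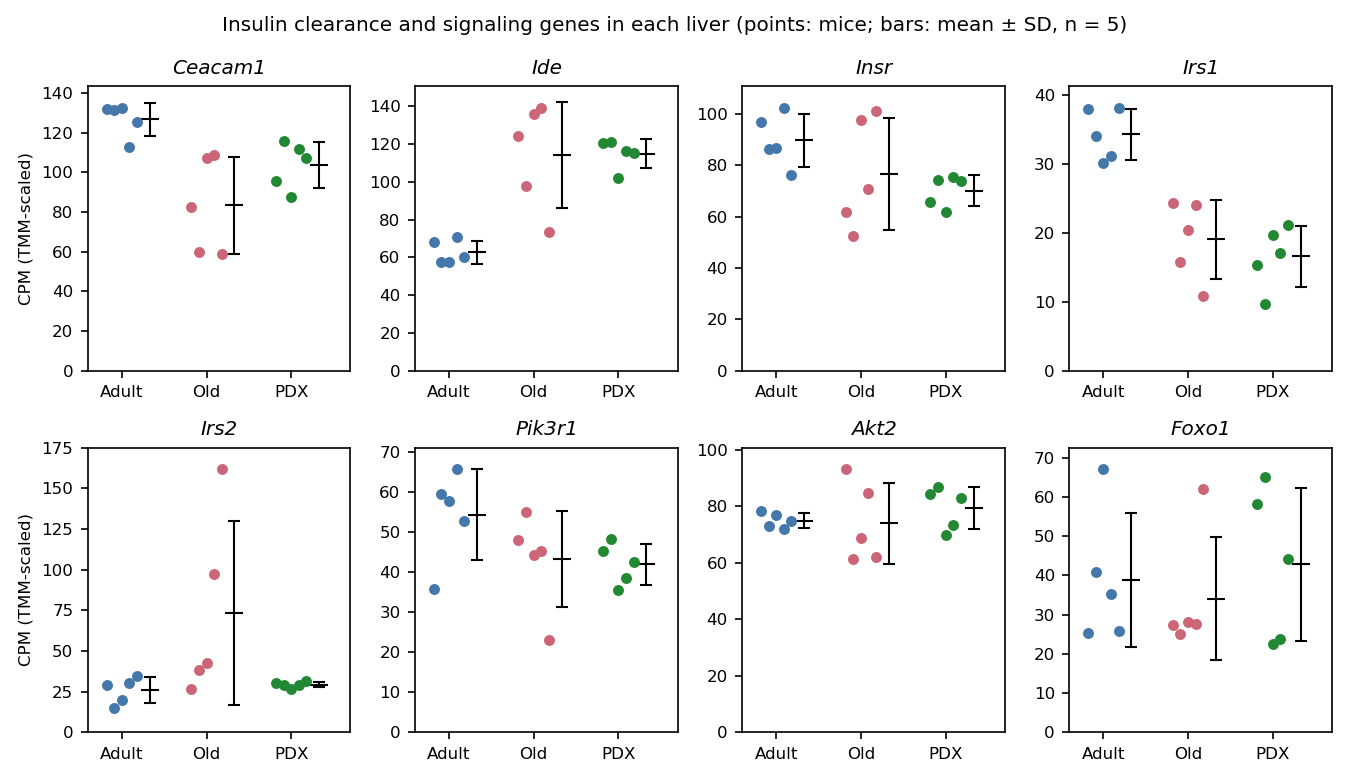
Each panel plots 1 gene, with the level in CPM on the vertical axis from 0 and the groups Adult, Old and PDX on the horizontal axis. Points are mice and bars the mean ± SD of 5 mice. Ide lies higher and Irs1 lower in every Old and PDX mouse than in every Adult mouse, and Irs2 is spread from 26.9 to 162 CPM in Old but lies between 26.7 and 31.3 CPM in PDX.

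Ceacam1 encodes a membrane glycoprotein that promotes uptake of the insulin receptor with its hormone. Its level in Adult was 132, 131, 132, 113 and 126 CPM (127 ± 8.25, SD, n = 5). In Old it was 82.4 CPM in O1, 60.0 in O2, 107 in O3, 109 in O4 and 58.8 in O5 (83.5 ± 24.4, SD, n = 5), and in PDX 95.9, 116, 87.6, 112 and 107 CPM (104 ± 11.7, SD, n = 5). Every Old mouse lay below every Adult mouse, the lowest being O2 and O5, and the PDX values overlapped those of both other groups. Between Old and Adult the log2 fold change was -0.60 (SE 0.17; edgeR adjusted p = 0.0489). Without O2 and O5 it was -0.34 (edgeR adjusted p = 0.0961), and the call was kept in 3 of 15 fits that left out 1 mouse, those without O3, O4 or O5. The gene lies on the minus strand of chromosome 7 (25461707 to 25477603, GRCm38), and 29.6% of the 50-base windows of its exons also occur in Ceacam2, so that its unique read pairs may undercount it; Ceacam2 itself had at most 12 counts in any mouse.

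Ide encodes insulin-degrading enzyme, a zinc metalloprotease that cleaves insulin. It was measured at 68.0, 57.6, 57.8, 70.6 and 60.0 CPM in Adult (62.8 ± 6.06, SD, n = 5) and at 124, 97.8, 136, 139 and 73.6 CPM in O1 to O5 (114 ± 27.9, SD, n = 5). In PDX it was 120, 121, 102, 116 and 115 CPM (115 ± 7.63, SD, n = 5). Old and PDX both lay wholly above Adult, and the Old mice nearest to Adult were O5 and O2. Between Old and Adult the change was 0.86 on the log2 scale (SE 0.16; edgeR adjusted p = 0.0110). Without O2 and O5 it was 1.10 (edgeR adjusted p = 5.99e-05), and the call was kept in all 15 fits without 1 mouse. In the fit of the Old and Adult mice alone the change was 0.89 with an edgeR adjusted p of 0.0605. Ide (chromosome 19, 37268743 to 37337852, minus strand) shares none of its 50-base exon windows with another gene.

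Insr encodes the insulin receptor. Its level ran from 76.1 to 102 CPM in Adult (89.6 ± 10.2, SD, n = 5), from 52.3 to 101 CPM in Old (76.7 ± 21.7, SD, n = 5) and from 61.8 to 75.3 CPM in PDX (70.1 ± 6.03, SD, n = 5). O3 and O5, at 97.7 and 101 CPM, lay within the Adult range, and O1, O2 and O4 lay below it. The log2 fold change between Old and Adult was -0.22 (SE 0.17; edgeR adjusted p = 0.406), which does not show that the groups were alike.

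Irs1 and Irs2 encode the main docking proteins that the receptor phosphorylates. Irs1 was measured at 37.9, 34.1, 30.1, 31.2 and 38.1 CPM in Adult (34.3 ± 3.70, SD, n = 5) and at 24.3, 15.7, 20.4, 24.1 and 10.9 CPM in O1 to O5 (19.1 ± 5.75, SD, n = 5). In PDX it was 15.3, 9.75, 19.7, 17.0 and 21.2 CPM (16.6 ± 4.46, SD, n = 5). All 10 Old and PDX mice lay below all Adult mice. On the log2 scale Irs1 fell by 0.85 between Adult and Old (SE 0.22; edgeR adjusted p = 0.0380), and without O2 and O5 the change was -0.57 (edgeR adjusted p = 0.0885). The call was lost without any 1 Adult mouse, without O2, without P1 and without P4, with edgeR adjusted p-values of 0.0307 to 0.0889 over the 15 fits.

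Irs2 was measured at 29.1, 15.3, 20.0, 30.4 and 34.8 CPM in Adult (25.9 ± 8.02, SD, n = 5). In Old it was 26.9 CPM in O1, 38.2 in O2, 42.4 in O3, 97.6 in O4 and 162 in O5 (73.4 ± 56.4, SD, n = 5), and in PDX 30.6, 29.0, 26.7, 29.3 and 31.3 CPM (29.4 ± 1.75, SD, n = 5). O1 lay within the Adult range, O2 and O3 just above it, and O4 and O5 far above it. The log2 fold change between Old and Adult was 1.50 (SE 0.40; edgeR adjusted p = 0.0391). Without O5 alone it was 0.98 (edgeR adjusted p = 0.0497), and without O2 and O5 1.11 (edgeR adjusted p = 0.0519). The call was lost without O4, without any 1 Adult mouse and without any 1 PDX mouse, with edgeR adjusted p-values of 0.0190 to 0.0989 over the 15 fits.

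Since the 2 adaptors moved in opposite directions, their ratio was taken within each library, where it does not depend on library scaling. The log2 ratio of Irs2 to Irs1 was below 0 in all Adult mice, at -0.38, -1.16, -0.59, -0.03 and -0.13, and above 0 in all Old mice, at 0.15, 1.27, 1.05, 2.01 and 3.88. In PDX it was 1.00, 1.57, 0.44, 0.78 and 0.56. These ratios are of CPM and are not scaled by exon length (Irs1 9.144 kb, Irs2 6.323 kb). A ratio of 0 therefore does not mark equal transcript levels, and its sign does not tell which adaptor was more abundant. Per kilobase of exon, mean Irs2 in Adult (4.10 CPM per kb) lay above mean Irs1 (3.75), with overlapping values. The means were -0.46 ± 0.45 in Adult, 1.67 ± 1.40 in Old and 0.87 ± 0.44 in PDX (SD, n = 5 each). The exact two-sided permutation test gave p = 0.00794, the smallest it can give with 5 against 5 mice, both for Old against Adult (difference 2.13) and for PDX against Adult (difference 1.33), with an adjusted p of 0.0119 over 3 comparisons. PDX and Old differed by -0.81 (exact permutation p = 0.278), a smaller gap than the spread of the Old mice. Without O2 and O5 the difference between Old and Adult was 1.53. The ratio was formed after both genes were known to be called, so it is a description of the pair and not independent evidence of either change.

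**Figure D2:**
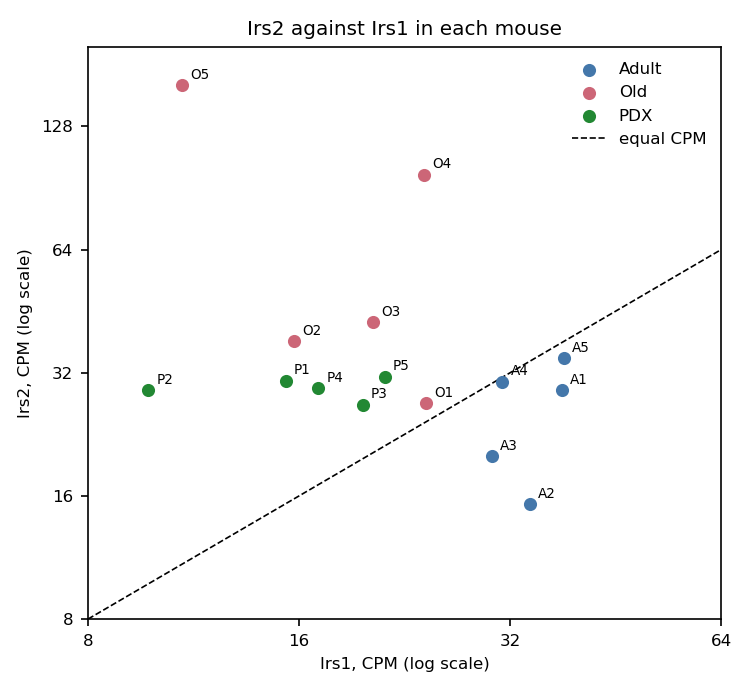
Each point is 1 mouse, with Irs1 on the horizontal and Irs2 on the vertical axis, both in CPM on log scales. The dashed line marks equal CPM, which is not an equal level per kilobase of exon. The 5 Adult mice lie below the line and the 10 Old and PDX mice above it, with O4 and O5 at 97.6 and 162 CPM of Irs2 at the top.

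Pik3r1 encodes the main regulatory subunits of phosphatidylinositol 3-kinase. It ran from 35.7 to 65.7 CPM in Adult (54.3 ± 11.4, SD, n = 5), from 23.1 to 55.2 CPM in Old (43.2 ± 12.0, SD, n = 5) and from 35.6 to 48.4 CPM in PDX (42.0 ± 5.13, SD, n = 5). In Old the value of 23.1 CPM belonged to O5 and the other 4 mice lay between 44.4 and 55.2 CPM, inside the Adult range. Old and Adult differed by a log2 fold change of -0.33 (SE 0.20; edgeR adjusted p = 0.311).

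Akt2, the main Akt kinase of insulin-responsive tissues, varied least in Adult, from 71.8 to 78.1 CPM (74.9 ± 2.6, SD, n = 5). It ran from 61.3 to 93.0 CPM in Old (73.9 ± 14.3, SD, n = 5) and from 69.9 to 86.7 CPM in PDX (79.5 ± 7.37, SD, n = 5). O2 and O5 were the lowest Old mice, at 61.3 and 62.0 CPM, and O1 the highest. Old and Adult differed by a log2 fold change of -0.02 (SE 0.13; edgeR adjusted p = 0.942). Of the 50-base windows of Akt2 exons, 9.76% also occur in the pseudogene Akt2-ps, so its counts carry that uncertainty.

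Foxo1 varied more between mice of the same group than any other of the 8 genes in Adult and PDX, and in Old more than all but Irs2, with a coefficient of variation of 43.8% in Adult, 46.0% in Old and 45.5% in PDX. Its level was 25.3, 41.0, 67.0, 35.4 and 25.9 CPM in Adult and 58.3, 65.2, 22.5, 23.8 and 44.3 CPM in PDX. In Old, O1 to O4 lay between 25.0 and 28.1 CPM and O5 at 61.9 CPM. The log2 fold change between Old and Adult was -0.19 (SE 0.36; edgeR adjusted p = 0.766), a standard error larger than the change itself. The clock genes, which vary over the day, had summed levels of 383 to 944 CPM in Adult, 235 to 981 CPM in Old and 239 to 350 CPM in PDX. According to the study's methods, the mice of a batch were euthanized between morning and late afternoon of a single day. Groups and sexes took turns in the order. The hour at which each liver was taken is not given in the sources used here.

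On a scale per kilobase of exon, which allows genes to be compared, Ceacam1 had the highest level in Adult (21.8 ± 1.42 CPM per kb, SD, n = 5), followed by Akt2 (10.5 ± 0.364), Ide (8.36 ± 0.807) and Insr (6.52 ± 0.743). Each of these first 3 lay wholly above the next gene. Pik3r1, Foxo1, Irs2 and Irs1 came last, from 5.39 down to 3.75 CPM per kb, and each overlapped its neighbour in this order. In Old, Ide (15.2 ± 3.72 CPM per kb), Ceacam1 (14.4 ± 4.20) and Irs2 (11.6 ± 8.92) each overlapped the next in order, and the last of them overlapped Akt2 (10.4 ± 2.00). Irs1 was lowest in all 3 groups, and in Old (2.09 ± 0.629 CPM per kb) and PDX (1.82 ± 0.488) it lay wholly below the next gene. In PDX, Ceacam1 (17.8 ± 2.01 CPM per kb) and Ide (15.3 ± 1.02) overlapped at the top.

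The second comparison, PDX with Old, asked what the treatment changed in the older mice. None of the 8 genes passed the test, and edgeR's test called 0 of 15808 genes (0%) in this comparison. Over all genes, 834 (5.28%) had an unadjusted edgeR p under 0.05, a share close to that threshold itself. Of the 8, only Irs2 had an unadjusted p under 0.05. DESeq2 and limma also called 0 of the 8 genes, and over all genes DESeq2 called 1 and limma 0. Irs2 had a log2 fold change of -1.32 (SE 0.40; edgeR unadjusted p = 0.00477, adjusted p = 0.793), which ranked 26 of 15808 genes by p. All 5 PDX mice lay below the Old mean and below O2 to O5, but O1, at 26.9 CPM, was lower than all of them except P3. Without O2 and O5 the change was -0.91 (edgeR adjusted p = 0.392). Ceacam1 had a log2 fold change of 0.31 (SE 0.17; edgeR adjusted p = 0.793), with all 5 PDX mice above the Old mean, and without O2 and O5 it was 0.06. Ide differed by 0.01 (SE 0.16), Irs1 by -0.20 (SE 0.22) and Insr by -0.13 (SE 0.17) on the log2 scale. Pik3r1 differed by -0.04 (SE 0.20), Akt2 by 0.10 (SE 0.13) and Foxo1 by 0.33 (SE 0.36). No gene of the 8 was free of overlap between PDX and Old, a condition that 0.342% of all genes met.

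The Old mice were more spread than the PDX mice for 7 of the 8 genes by standard deviation, Foxo1 being the exception. The contrast was widest for Irs2, whose coefficient of variation was 76.9% in Old, 5.96% in PDX and 31.0% in Adult. For Ide it was 24.4% in Old and 6.64% in PDX, and for Insr 28.3% in Old and 8.61% in PDX. These spreads are given as a description, with O5 the highest Old value for Irs2 and Insr and the lowest for Ide, and they were not tested. A wider spread in Old was not particular to these genes. Median correlations with mice of the same group ran from 0.858 to 0.936 in Old and from 0.971 to 0.978 in PDX. The share of all genes that were more spread in Old is not given here.

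The third comparison, PDX with Adult, shares the Adult mice with the first. Ide rose 1.83-fold (log2 fold change 0.87, SE 0.16; edgeR adjusted p = 0.00875) and Irs1 fell to 0.484 of its Adult level (log2 fold change -1.05, SE 0.22; edgeR adjusted p = 0.0223). Thus 2 of 8 genes were called, where 2.66% of all genes were, 1.76% higher and 0.898% lower. This share, too, is only a description of a chosen list. Ide was called in all 15 fits without 1 mouse. Irs1 was called in 9 of them and lost without A1, A2, A5, P1, P2 or P4, with edgeR adjusted p-values of 0.00434 to 0.0692. Irs2, called in Old, had a log2 fold change of 0.18 (SE 0.39; edgeR adjusted p = 0.844), and Ceacam1 one of -0.29 (SE 0.17; edgeR adjusted p = 0.354). Insr differed by -0.35 (SE 0.17; edgeR adjusted p = 0.247), with all PDX mice below all Adult mice and the nearest values at 75.3 and 76.1 CPM. Pik3r1 differed by -0.37 (edgeR adjusted p = 0.320), Akt2 by 0.09 (edgeR adjusted p = 0.755) and Foxo1 by 0.14 (edgeR adjusted p = 0.875). Ide, Irs1 and Insr, 3 of the 8, did not overlap between PDX and Adult, where 19.9% of all genes did not, 10.5% lying higher and 9.34% lower. Between Old and Adult, Ide, Irs1 and Ceacam1 did not, where 8.13% of all genes did not, 3.65% lying higher and 4.48% lower. In the fit of the PDX and Adult mice alone, Ceacam1 (edgeR adjusted p = 0.0291) and Insr (edgeR adjusted p = 0.0152) were called lower as well, where 4529 of all genes (29.6%) were called.

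**Figure D3:**
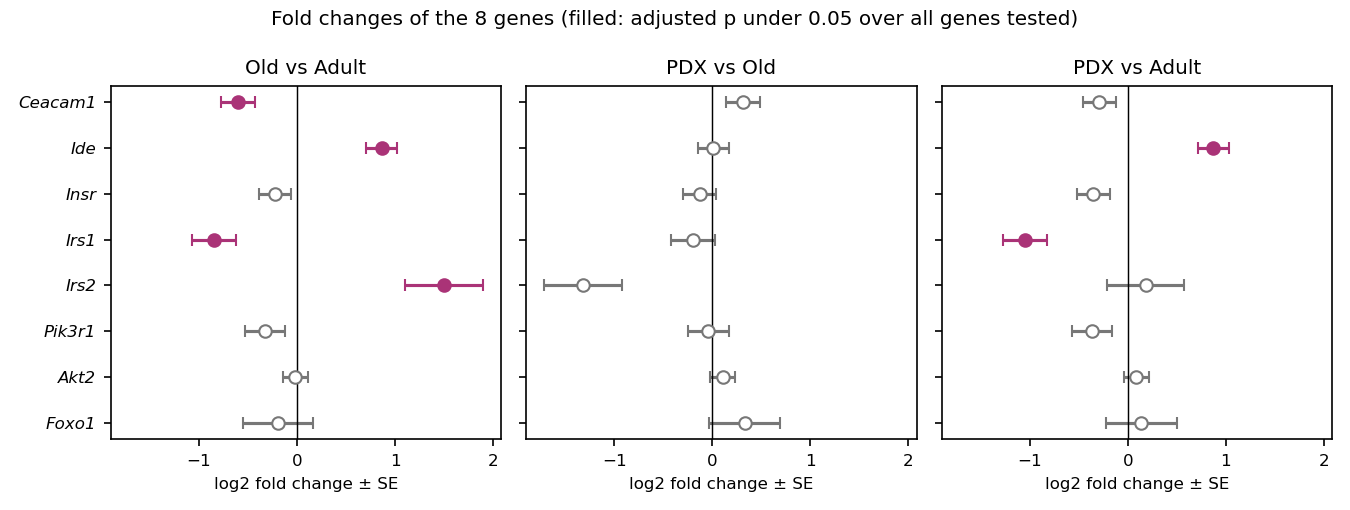
The log2 fold change with its standard error is on the horizontal axis and the 8 genes are on the vertical axis, with 1 panel per comparison; filled points passed an adjusted p of 0.05. Old against Adult has 4 filled points, PDX against Adult has 2, Ide and Irs1, and PDX against Old has none, with Irs2 at -1.32 farthest from 0.

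The other genes of the pathway were described from a list of 59, of which 56 were tested; Irs4, Foxo6 and Ceacam2 had at most 12 counts in any mouse and were filtered out. Between Old and Adult 1 of the 56 rose and 1 fell (3.57%, against 6.78% of all genes), and the median absolute log2 fold change of 0.28 compares with 0.31 over all genes. Socs3, a feedback inhibitor that binds the insulin receptor and targets IRS proteins, rose from 6.87 to 17.1 CPM in Adult (median 10.3) to 22.1 to 39.1 CPM in Old (median 33.3), with a log2 fold change of 1.40 (SE 0.35; edgeR adjusted p = 0.0322). Foxo4, a relative of Foxo1, fell from 41.7 to 51.1 CPM in Adult (median 47.1) to 25.5 to 37.9 CPM in Old (median 30.8), with a log2 fold change of -0.56 (SE 0.14; edgeR adjusted p = 0.0310). Neither gene overlapped between the groups. Of the 56 genes, 3 lay wholly higher and 2 wholly lower in Old, where 3.65% and 4.48% of all genes did. Both calls were lost without any 1 Adult mouse or without O2. None of the 3 tested receptors, 8 adaptors and docking partners, 5 kinase subunits, 8 PDK1, Akt and mTOR complex genes, 7 Akt substrates, 5 FOXO1 target genes, 2 insulin-induced genes and 3 clearance genes passed the test in this comparison.

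Between PDX and Adult 1 of 56 genes passed (1.79%, against 2.66% of all genes). This was again Socs3, at 19.4 to 74.7 CPM in PDX (median 36.3), with a log2 fold change of 1.76 (SE 0.36; edgeR adjusted p = 0.0162). Its call was lost without A2 or without A3. Socs3 did not overlap with Adult. Of the 56 genes, 8 lay wholly higher and 8 wholly lower in PDX, where 10.5% and 9.34% of all genes did. Socs3 is also induced by inflammatory cytokines, and acute-phase genes were called higher for 6 of 9 in this comparison; the part of that response in the Socs3 value was not tested. The number of pathway genes called between PDX and Adult was 8 without O5, where 10.9% of all genes were called, and 6 without O2, where 11.1% were. Without both it was 18, 10 higher and 8 lower, where 24.6% of all genes were called. Between PDX and Old 0 of 56 genes passed edgeR's test, and DESeq2 and limma called 0. An unadjusted edgeR p under 0.05 was found for 3 of the 56, where 5.28% of all genes had one. The smallest p belonged to G6pc, which encodes the catalytic subunit of glucose-6-phosphatase and is a target of FOXO1. It ran from 204 to 674 CPM in Old (median 311) and from 113 to 233 CPM in PDX (median 194), with a log2 fold change of -1.16 (SE 0.32; edgeR unadjusted p = 0.00222, adjusted p = 0.793), ranked 4 of 15808 genes by p. Igfbp1, another FOXO1 target, differed by -2.24 (SE 0.96; edgeR adjusted p = 0.793), with 1 Old mouse at 5504 CPM where the Old median was 252. Grb10, an adaptor that dampens receptor signaling, differed by -0.51, Trib3, a pseudokinase that binds Akt, by -1.20, and Ptpn11, which encodes the phosphatase SHP2, by -0.47 on the log2 scale, and the groups overlapped for all 5 of these genes.

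**Figure D4:**
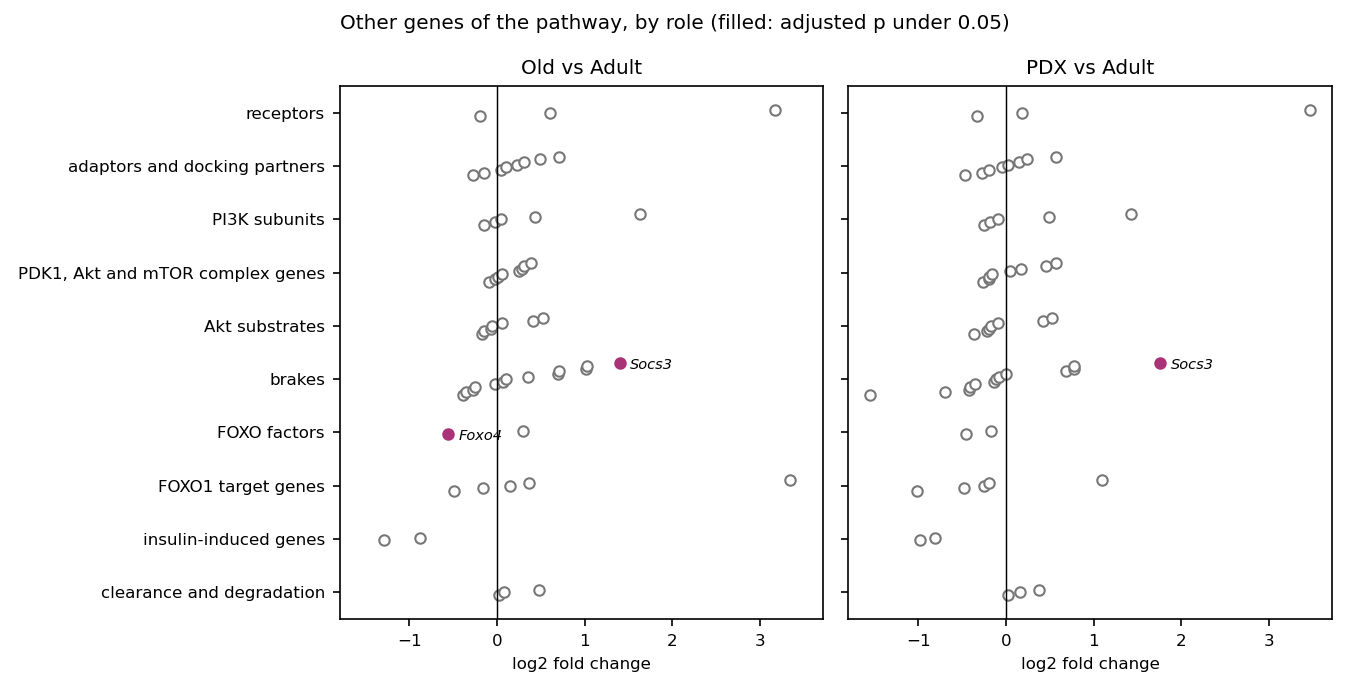
Points are the 56 tested genes of the pathway list, grouped by role on the vertical axis, with the log2 fold change against Adult on the horizontal axis for Old and for PDX. Filled points passed an adjusted p of 0.05: Socs3 in both panels, at 1.40 and 1.76, and Foxo4 in Old, at -0.56.

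The frailty index, a score of accumulated health deficits given for each mouse in the labels, was 0 in all Adult mice, 0.11 to 0.56 in Old (median 0.19) and 0.06 to 0.26 in PDX (median 0.20). Its relation to log2 CPM was therefore computed over the 10 Old and PDX mice, for each of the 8 genes. Irs2 had a Pearson r of 0.84 (permutation p = 0.00839, adjusted p = 0.0451 over 8 genes) and a Spearman rho of 0.34 (permutation p = 0.333, adjusted p = 0.885). Pik3r1 had a Pearson r of -0.85 (permutation p = 0.0113, adjusted p = 0.0451) and a Spearman rho of -0.66 (permutation p = 0.0409, adjusted p = 0.327). O5, at 0.56, had the index farthest from the median of 0.195, and O4, at 0.33, and P1, at 0.06, came next at an equal distance of 0.135. Without O5 and O4, r was -0.26 for Irs2 (permutation p = 0.557) and -0.64 for Pik3r1 (permutation p = 0.0869). Without O5 and P1, a choice added after the data were seen, r was 0.59 for Irs2 (permutation p = 0.169) and -0.53 for Pik3r1 (permutation p = 0.170). Neither relation passed the test without either pair, and that of Irs2 turned its sign without O5 and O4. With values centred on each group, r was 0.85 for Irs2 and -0.89 for Pik3r1. No value was computed within a group, each of which held only 5 mice. Insr had an r of 0.64 (permutation p = 0.0465, adjusted p = 0.124) and a rho of 0.58 (permutation p = 0.0852, adjusted p = 0.341), and its r was 0.42 without O5 and O4 (permutation p = 0.296) and 0.35 without O5 and P1 (permutation p = 0.392). The r of the other 5 genes lay between -0.56 for Ide and 0.19 for Foxo1, with adjusted p-values of 0.217 to 0.641 by permutation.

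**Figure D5:**
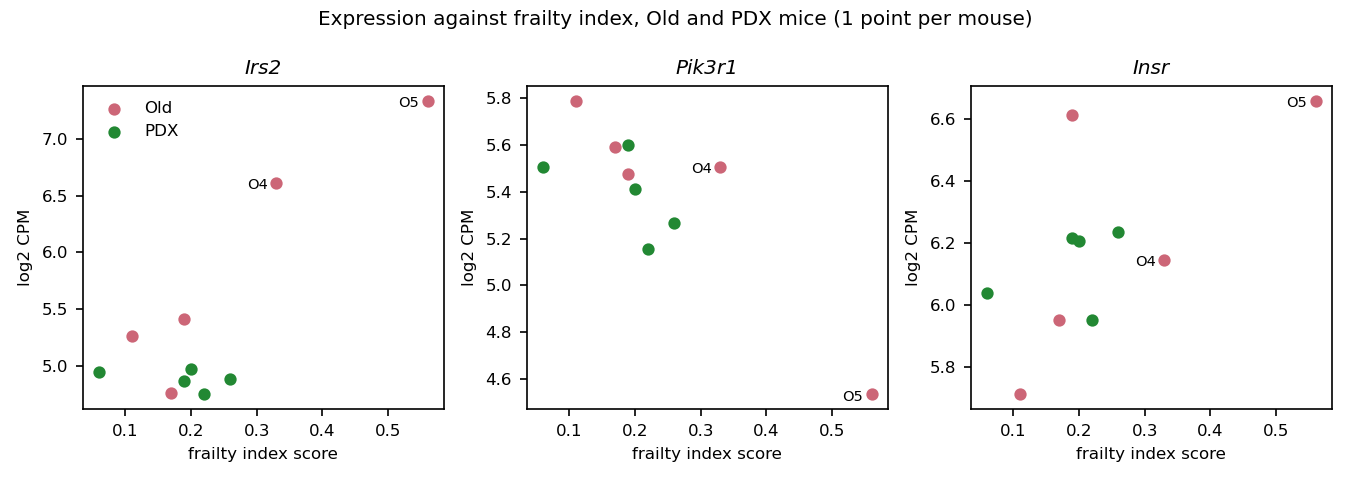
Each point is 1 Old or PDX mouse, with the frailty index score on the horizontal axis and log2 CPM of Irs2, Pik3r1 or Insr on the vertical axis. O5, at an index of 0.56, is the highest point for Irs2 and Insr and the lowest for Pik3r1, and the other mice, O4 aside, show no such slope for Irs2.

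The genes whose log2 CPM ranked the mice most like each of the 8 were sought among the 12022 genes whose mean log2 CPM reached 1, as a description over 15 mice that share their groups and libraries. Tmem135 (Spearman rho 0.94), Mlxipl (0.93), which encodes the carbohydrate response factor ChREBP, and Mdh1 (0.93), cytosolic malate dehydrogenase, were most like Ceacam1. Uggt1 (rho 0.92), Dnajc3 (0.90) and Calu (0.89), which encode proteins of the endoplasmic reticulum, were most like Ide. Sec23a, Ireb2 and Pnpla8 were most like Insr, each with a rho of 0.97, and Hagh (rho 0.96), Hsd17b6 (0.95) and Echdc2 (0.95) were most like Irs1. For Irs2 the highest values were 0.88 for Zfp472, 0.80 for Cmtr2 and 0.80 for Arglu1, and for Pik3r1 0.83 for Sgpp1, 0.82 for A930033H14Rik and 0.81 for Kcnk5, so that these 2 genes had the weakest nearest neighbours of the 8. Akt2 was most like Plg (rho 0.95), Itpa-ps1 (0.95) and Fkbp8 (0.94), and Foxo1 most like Ell2 (0.96), Arhgef26 (0.95) and Gin1 (0.90). Without O2 and O5 these rho values lay between 0.73 and 0.98 over 13 mice.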

How the data were processed

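The authors sequenced strand-specific poly(A) libraries of 15 livers as paired ends, aligned them with STAR (version 2.6.0c) to mm10 and counted unique proper pairs on the gene's strand with featureCounts (Subread 1.6.2, Ensembl 100), mitochondrial genes left out. These deposited values are raw counts. A second deposited table holds log2-scale values that the authors made by variance stabilization in DESeq2 (version 1.23.10), used here only as an alternative. Of 55450 gene IDs, 55104 received a symbol from GENCODE M21 (GRCm38), which also gave coordinates and exon lengths, and 0 columns were without a sample. No source used here says how livers were assigned to batches of euthanasia, so no value within a batch could be given.

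Genes with low counts were removed by filterByExpr (10 counts per library and 15 in total as minima), and the rest were scaled by TMM and tested with edgeR (version 4.0.16) in R 4.3.3, with 1 coefficient per group over all 15 mice. Log2 CPM used a prior count of 2. All permutation tests, exact for the ratio and with 100000 resamples for correlations, were two-sided (scipy 1.17.1). Alternatives were DESeq2 (version 1.42.0), limma (version 3.58.1) on the log2 values, RLE factors, no low-count filter, fits of the groups compared, a replicate block, and fits without each mouse or without O2 and O5, and the correlations without O5 and O4 or O5 and P1. The scripts were tested on simulated data. The 8 genes and all lists were chosen with earlier results of these data known. Named pathway genes are those past the threshold or, with none, the 5 with the smallest p, and for each of the 8 genes the 3 with the highest rho are named.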

Additional observations from a re-analysis of the deposited data

Results flagged for a closer look

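In Old, the Foxo1 level of O5 (61.9 CPM) stood apart from the other 4 mice: the gap to its nearest neighbour was 0.87 of the group's range on the log2 scale, above Dixon's 95% critical value of 0.71 for 5 mice. The Pik3r1 level of O5 (23.1 CPM), the lowest in Old, had a gap of 0.75 of the range. Both values belong to the same mouse. Chance flags about 1 in 20 groups, and 2 of 33 groups examined were above the critical value.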

How the results depend on the processing

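Between Old and Adult, 6.78% of all genes were called, against 14.1% with DESeq2, 6.90% with RLE factors, 4.12% with limma, 2.26% without the low-count filter, 7.12% without O2 and O5 and 0.698% in the fit of those 2 groups alone. In the same order, 4 of the 8 genes were called, against 4, 4, 3, 2 (Ide and Irs2), 1 (Ide) and 0, and leaving out 1 mouse gave 1 to 4. Pathway genes called there numbered 2, against 8 with DESeq2, 1 without O2 and O5, 1 without the filter, 0 in the fit of 2 groups and 0 to 6 without 1 mouse. Between PDX and Adult, 2.66% of all genes were called, against 7.70% with DESeq2, 24.6% without O2 and O5 and 29.6% in the fit of 2 groups. The count among the 8 genes was 2, except 4 in the fit of 2 groups and 1 to 2 when 1 mouse was left out, and pathway genes numbered 1, against 6, 18 and 21 in that order and 0 to 8 without 1 mouse. Between PDX and Old the count among the 8 genes was 0 under all settings. The causes of these shifts were not tested. The sources do not say whether the numbers of the mice pair them, and the main tests treated the mice as unpaired. Same-numbered mice had correlations of -0.215 to -0.110 between Old and Adult (mean -0.168, other pairs 0.0435). Between PDX and Old they ran from -0.0389 to 0.285, with 3 of 5 pairs over 0.1 (mean 0.092, other pairs -0.0225). Between PDX and Adult they ran from -0.0469 to 0.146, with 1 of 5 over 0.1 (mean 0.031, other pairs -0.0078). These values do not settle the pairing. With the replicate block, 1 of the 8 genes (Ide) and 0 pathway genes were called between Old and Adult (1.50% of all genes), and 2 of the 8 and 2 pathway genes between PDX and Adult (2.00%). The Irs2 to Irs1 differences of 2.13 and 1.33 could not pass a paired exact sign-flip test, whose smallest p with 5 pairs is 0.0625. Fold changes near 0 turned their sign. Akt2 between Old and Adult became 0.15 without O2 and O5 and 0.0076 in the fit of 2 groups, and between PDX and Old -0.041 without O2 and O5. Ide between PDX and Old became -0.21 without O2 and O5 and -0.0062 in the fit of 2 groups, and Pik3r1 there 0.0013 with limma. Over fits without 1 mouse, log2 fold changes between Old and Adult ran from -0.095 to 0.053 for Akt2 and from -0.52 to 0.091 for Foxo1. Between PDX and Old they ran from -0.11 to 0.091 for Ide and from -0.20 to 0.057 for Pik3r1, and for Foxo1 between PDX and Adult from -0.065 to 0.42. The number of genes related to the frailty index went from 2 to 0 without O2 and O5, without O5 and O4 and without O5 and P1, and ran from 0 to 3 without 1 mouse. Without O2 and O5 the r of Ceacam1 became 0.37, of Ide 0.21, of Irs1 0.34 and of Foxo1 -0.58. Without O5 and O4 it became 0.49 for Ceacam1, 0.077 for Ide, 0.18 for Irs1, -0.26 for Irs2 and -0.41 for Foxo1, and without O5 and P1 0.67 for Ceacam1, 0.55 for Ide, 0.32 for Irs1, 0.35 for Akt2 and -0.12 for Foxo1. The pair of O5 and P1 was added after the data were seen. Without 1 mouse r ran from -0.62 to 0.52 for Ceacam1, -0.74 to 0.39 for Ide, -0.42 to 0.38 for Irs1, -0.62 to 0.12 for Akt2 and -0.41 to 0.45 for Foxo1. Of 168 fold changes of the 8 genes under settings other than leaving out 1 mouse, 147 kept direction and call. Most of these were not called in the main fit either, and kept that state. In 13 a call was lost, all among Ceacam1, Ide, Irs1 and Irs2 between Old and Adult. In 2 a call was gained, and in 6 the sign turned.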
